A study of Mus musculus with 8 samples.

Results

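The 32 genes described here act in cholesterol synthesis, uptake and efflux, and they were read in the livers of Rap1-deficient and wild-type mice. They were taken as a list of symbols that was chosen with earlier results of these data known. All 32 had a probe that passed the filter on dim signals, among 14062 genes tested. In the order of the pathway, 7 belong to the mevalonate steps, 12 to the sterol steps, 4 to the control of the transcription factor SREBP2, 3 to uptake and transport of cholesterol inside the cell, and 6 to its efflux and esterification. Liver RNA of mice aged 10 weeks was hybridised to 8 Agilent single-colour arrays of probes 60 bases long. The labels number the replicates and name no animals, and each array was taken as 1 mouse. Of the 8 mice, 4 carried the labelled genotype Rap1 -/- and 4 were wild-type, all on a C57BL6/129SV (90%:10%) background. The Rap1 -/- allele is a constitutive deletion in the whole body, made by crossing Rap1 flox/flox mice with EIIa-cre mice, in which an adenoviral promoter drives Cre in the early embryo. The deletion was thus not limited to hepatocytes. The study describes liver profiling at this age in females taken before the onset of obesity, and also in females of this age that had been fasted. The labels give neither their sex nor their feeding state.

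The liver builds cholesterol from acetyl-CoA, first to isoprenoids through mevalonate and then, from squalene onwards, through a series of sterols. SREBP2, encoded by Srebf2, drives transcription of these enzymes as one set: when sterols in the endoplasmic reticulum run low, SCAP escorts SREBP2 to the Golgi for cleavage, and when sterols are plentiful the INSIG proteins hold it back. Surplus cholesterol is esterified, secreted into bile or moved to high-density lipoprotein, partly under the control of the oxysterol receptor LXR. RAP1, encoded by Terf2ip, is a telomere protein that also binds along chromosome arms, and the study asked how its loss bears on metabolism.

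The knockout was checked first by its own gene. One Terf2ip probe had a mean log2 signal of 0.14 in the wild-type arrays, relative to the 75th percentile of each array, and was well above background on none of the 4 Rap1 -/- arrays, at least 19-fold lower (limma, adjusted p = 7.08e-06 over the probes tested). A second Terf2ip probe had a mean of -0.92 in wild-type and 0.29 in Rap1 -/- arrays (adjusted p = 0.127), and whether it lies within the deleted part is not known from the files. The 8 arrays lay on 2 slides, each holding a pair of arrays of either genotype, so that slide was balanced against genotype, while position on the slide and genotype cannot be told apart. The processed signal at the 75th percentile was 179 to 209 in wild-type and 220 to 227 in Rap1 -/- arrays, and 50% to 65.3% of probes were well above background, the highest share being on the array of wild-type replicate 4. Correlations between arrays over all genes ran from 0.984 to 0.993. The summed level of the 6 hepatocyte markers (log2, relative to the 75th percentile) was 11.91 to 12.01 in wild-type and 11.83 to 11.89 in Rap1 -/- arrays, so the tissue label held on every array.

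Promoter windows could be matched for 25 of the 32 genes. They were taken from RefSeq (build GRCm38.p6) and run from 250 bases before to 50 bases after each annotated start, 300 bases in all. The other genes, for which no window is printed, are Abcg1, Fdft1, Fdps, Npc1, Soat2, Sqle and Stard4. Motifs were searched on both strands: the sterol regulatory element TCACNCCAC read by SREBP2, the CCAAT box read by NF-Y, a known partner of SREBP2, and the palindromic E-box CACGTG. None of the 3 overlapped another in the windows shown. The 6 synthesis promoters printed below belong to the genes whose unadjusted p was under 0.05 in the array comparison, Acat2 among them having no CCAAT box, and that of Abca1 is shown as the efflux gene without one. Capitals mark the sterol regulatory element and the CCAAT box, the latter as ATTGG where it lies on the opposite strand.
Hmgcs1, chr13:119690101-119690400, plus strand: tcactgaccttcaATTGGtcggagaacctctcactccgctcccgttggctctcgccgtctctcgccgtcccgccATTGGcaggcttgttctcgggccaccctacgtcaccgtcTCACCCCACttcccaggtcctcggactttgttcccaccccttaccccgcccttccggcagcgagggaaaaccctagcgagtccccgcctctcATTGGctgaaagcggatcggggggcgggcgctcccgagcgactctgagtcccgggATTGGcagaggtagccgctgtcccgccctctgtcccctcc
Lss, chr10:76531355-76531654, plus strand: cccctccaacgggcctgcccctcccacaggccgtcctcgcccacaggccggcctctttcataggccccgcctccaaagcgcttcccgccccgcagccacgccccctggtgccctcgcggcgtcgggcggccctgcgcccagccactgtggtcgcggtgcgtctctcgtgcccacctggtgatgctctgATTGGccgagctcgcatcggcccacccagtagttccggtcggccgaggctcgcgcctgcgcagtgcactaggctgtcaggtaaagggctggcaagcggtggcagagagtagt
Cyp51, chr5:4104648-4104947, minus strand: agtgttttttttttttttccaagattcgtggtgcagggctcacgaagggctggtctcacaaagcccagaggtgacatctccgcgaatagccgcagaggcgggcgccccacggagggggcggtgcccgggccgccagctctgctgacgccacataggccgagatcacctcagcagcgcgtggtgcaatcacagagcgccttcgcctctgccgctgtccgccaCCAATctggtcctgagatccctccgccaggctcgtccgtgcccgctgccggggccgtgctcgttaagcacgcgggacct
Sc5d, chr9:42264251-42264550, minus strand: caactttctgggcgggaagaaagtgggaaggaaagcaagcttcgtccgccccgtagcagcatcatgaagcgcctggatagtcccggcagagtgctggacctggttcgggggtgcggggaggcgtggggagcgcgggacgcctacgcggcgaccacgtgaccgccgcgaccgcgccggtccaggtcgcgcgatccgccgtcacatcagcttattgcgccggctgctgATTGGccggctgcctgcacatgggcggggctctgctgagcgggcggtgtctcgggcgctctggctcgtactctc
Nsdhl, chrX:72918271-72918570, plus strand: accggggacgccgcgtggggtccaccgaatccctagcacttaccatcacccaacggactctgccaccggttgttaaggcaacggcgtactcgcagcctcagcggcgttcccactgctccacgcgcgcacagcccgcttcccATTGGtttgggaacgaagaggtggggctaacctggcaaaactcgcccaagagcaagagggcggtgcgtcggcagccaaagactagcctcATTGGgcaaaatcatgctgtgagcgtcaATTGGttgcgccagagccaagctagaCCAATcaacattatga
Acat2, chr17:12960676-12960975, minus strand: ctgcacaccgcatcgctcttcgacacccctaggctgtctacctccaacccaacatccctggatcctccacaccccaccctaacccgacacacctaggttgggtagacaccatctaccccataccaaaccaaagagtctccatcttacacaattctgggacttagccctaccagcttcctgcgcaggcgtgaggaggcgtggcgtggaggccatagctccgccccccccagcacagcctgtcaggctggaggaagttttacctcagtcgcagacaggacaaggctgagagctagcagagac
Abca1, chr4:53159846-53160145, minus strand: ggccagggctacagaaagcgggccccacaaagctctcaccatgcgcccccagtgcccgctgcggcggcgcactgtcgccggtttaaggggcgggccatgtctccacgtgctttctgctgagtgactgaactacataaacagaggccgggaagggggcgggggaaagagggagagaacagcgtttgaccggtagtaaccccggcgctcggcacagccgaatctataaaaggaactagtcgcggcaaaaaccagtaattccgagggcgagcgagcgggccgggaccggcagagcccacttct

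The exact element TCACNCCAC was found in 1 of the 25 genes, Hmgcs1, at -137 to -129 from the start, against 1.43% of 26742 genes with windows. The CCAAT box was more widely shared, being present in 22 of 25 member genes against 41.0% of all genes, and in 15 of the 16 synthesis genes with a window, Acat2 being without it. It stood at -62 to -58 in Lss, at -29 to -25 in Cyp51 and at -24 to -20 in Sc5d, while Hmgcs1 and Nsdhl held 4 copies each. The E-box was found in 6 of 25 member genes against 8.11% of all genes, with Sc5d and Abca1 among the 6. A match describes letters in the window and is no evidence of binding.

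The synthesis genes had higher mean signals in Rap1 -/- than in wild-type livers, but no single gene passed the test over all genes. All 19 synthesis genes had a log2 fold change above 0, with a median of 0.42 and a range from 0.01 to 0.70, whereas the 13 control, uptake and efflux genes had a median of 0.08. The median over all genes tested was 0.02 and 56.1% of them were above 0. With normexp and quantile normalization 18 of the 19 synthesis genes were above 0, Lbr being at -0.02. Of the 32 members, 0 had an adjusted p under 0.05 (limma, Benjamini-Hochberg), against 0.0142% of all genes, and the smallest adjusted p among them was 0.769. At an unadjusted p under 0.05, 6 members were higher (18.8%, against 4.01% of all genes) and 0 were lower (against 2.35%). These 6 were Acat2, Hmgcs1, Lss, Cyp51, Nsdhl and Sc5d, all of them synthesis genes. Since the list was chosen with earlier results of these data known, its shares beside those of all genes are descriptions only.

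**Figure D1:**
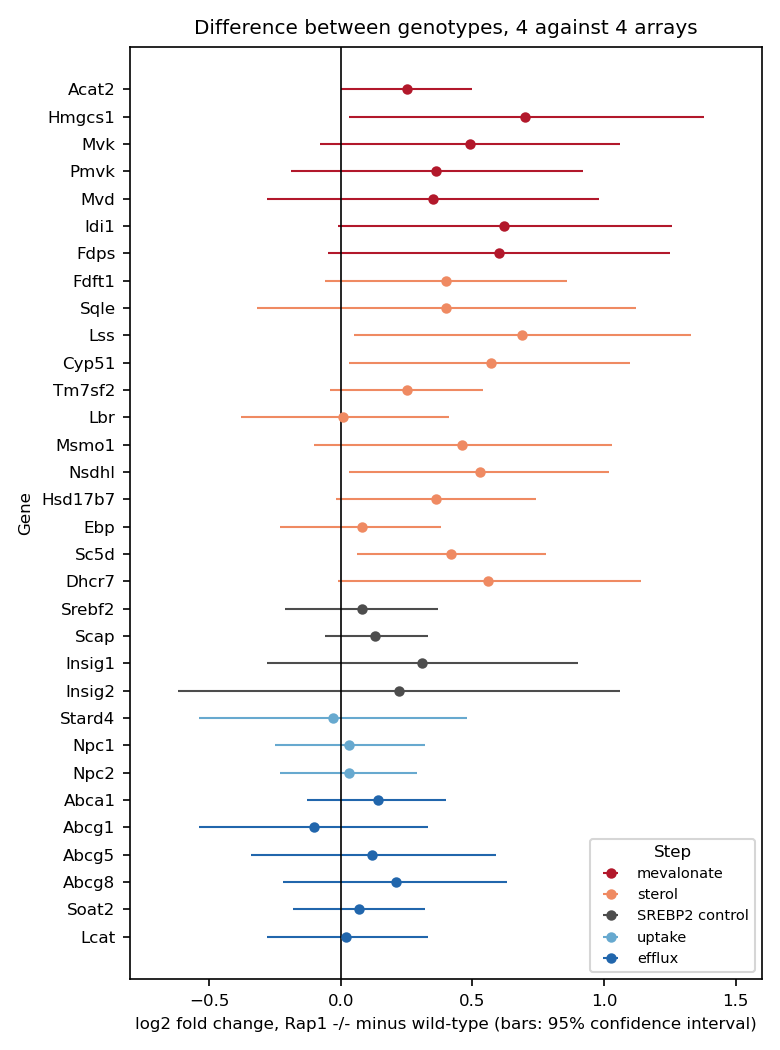
Log2 fold change of each of the 32 genes, Rap1 -/- minus wild-type (horizontal axis), with its 95% confidence interval from limma on 4 against 4 arrays; colours give the step of the pathway. All 19 synthesis genes lie above 0, the intervals of 13 of them include 0, and the control, uptake and efflux genes lie between -0.10 and 0.31.

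Among the mevalonate genes the widest difference in means was that of Hmgcs1, the cytosolic HMG-CoA synthase. Its log2 signal was 7.14, 8.30, 7.80 and 6.84 in wild-type replicates 1 to 4 and 8.54, 8.10, 8.19 and 8.06 in Rap1 -/- replicates 1 to 4. The means were 7.52 ± 0.65 and 8.22 ± 0.22 (SD, n = 4 each), a log2 difference of 0.70 ± 0.30 (SE) or 1.63-fold, with an adjusted p of 0.769. Wild-type replicates 1, 3 and 4 lay below every Rap1 -/- array, while replicate 2 lay among them. Idi1, which isomerises isopentenyl diphosphate, measured 5.62, 6.77, 6.47 and 5.48 in wild-type and 6.75, 6.77, 6.48 and 6.82 in Rap1 -/- livers, a difference of 0.62 ± 0.28. Wild-type replicates 1 and 4 were under every other liver, and replicate 3 was just under the lowest Rap1 -/- value. Fdps, which makes farnesyl diphosphate, measured 6.95, 7.57, 7.48 and 6.16 against 7.80, 7.44, 7.71 and 7.63, a difference of 0.60 ± 0.29 (adjusted p = 0.783).

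Acat2, the cytosolic thiolase that starts the pathway, had the narrowest wild-type spread of this group. It measured 5.42, 5.43, 5.61 and 5.40 in wild-type and 5.76, 5.80, 5.83 and 5.48 in Rap1 -/- livers, a log2 difference of 0.25 ± 0.11 (adjusted p = 0.779). Here the low wild-type values were not limited to replicates 1 and 4, and 1 Rap1 -/- liver fell among the wild-type ones. For the 2 kinases and the decarboxylase that follow, the differences were 0.49 ± 0.25 (Mvk), 0.36 ± 0.25 (Pmvk) and 0.35 ± 0.28 (Mvd), with adjusted p values of 0.788, 0.834 and 0.856. A second probe of Mvk gave 0.56 and a second probe of Pmvk 0.37, close to those of the brighter probes used. In all 7 mevalonate genes, wild-type replicates 1 and 4 were below every Rap1 -/- array.

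Of the sterol genes, Lss, lanosterol synthase, had the widest difference. Its log2 signal was 1.52, 2.30, 2.23 and 0.94 in wild-type and 2.40, 2.26, 2.54 and 2.53 in Rap1 -/- livers, a difference of 0.69 ± 0.28 or 1.61-fold (limma adjusted p = 0.769). Only wild-type replicate 2 exceeded any Rap1 -/- array. Cyp51, the lanosterol demethylase, measured 1.08, 2.09, 1.83 and 1.07 against 1.96, 2.28, 2.00 and 2.09, a difference of 0.57 ± 0.24. Replicates 1, 3 and 4 of the wild-type group stood below every Rap1 -/- liver, replicates 1 and 4 being the lowest.

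Dhcr7, whose enzyme completes cholesterol in 1 of the final branches, was the only member whose groups did not overlap. It measured 2.54, 3.02, 2.87 and 1.72 in wild-type and 3.20, 3.14, 3.02 and 3.04 in Rap1 -/- livers, and the groups were apart by less than the rounding of these values. Over all genes, 3.01% had all Rap1 -/- arrays above all wild-type arrays. The difference in means was 0.56 ± 0.25 (adjusted p = 0.783), with a two-sided exact permutation p of 0.0286, the smallest that 4 against 4 arrays allow. Without wild-type replicate 4 the difference was 0.29. Sc5d, the lathosterol desaturase, had the smallest unadjusted p of the 32 members. It measured 6.85, 7.07, 7.20 and 6.60 against 7.36, 7.08, 7.59 and 7.37, a difference of 0.42 ± 0.16 (limma unadjusted p = 0.0275, adjusted p = 0.769, exact permutation p = 0.0571). Only wild-type replicate 3 was above the lowest Rap1 -/- value. Nsdhl, one of the C4 demethylation enzymes, measured 1.97, 2.70, 2.70 and 1.92 against 2.69, 3.09, 2.62 and 2.98, a difference of 0.53 ± 0.22, and its second probe gave 0.41.

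For the remaining sterol genes the differences in means ran from 0.01 to 0.46. Msmo1, the sterol C4 methyl oxidase, differed by 0.46 ± 0.25, Hsd17b7, a ketosteroid reductase of C4 demethylation, by 0.36 ± 0.17, and Fdft1, squalene synthase, by 0.40 ± 0.20. Squalene epoxidase, encoded by Sqle and a rate-limiting enzyme of the sterol steps, had the widest wild-type spread of the 32 genes. It measured 4.73, 6.17, 5.65 and 4.72 in wild-type and 5.87, 5.53, 5.54 and 5.93 in Rap1 -/- livers, a log2 difference of 0.40 ± 0.32 (adjusted p = 0.856). Wild-type replicate 2 was the highest of all 8 livers for this gene. Tm7sf2 and Lbr both encode sterol C14 reductases, Lbr being also a lamin receptor of the nuclear envelope. Tm7sf2 differed by 0.25 ± 0.13 and Lbr by 0.01 ± 0.17, the interval of Lbr being -0.38 to 0.41. Second, dimmer probes gave 0.12 for Tm7sf2, 0.03 for Lbr and 0.30 for Hsd17b7. Ebp, the sterol isomerase, differed by 0.08 with an interval of -0.23 to 0.38. A dim second probe of Fdft1 gave -0.06, against 0.40 for the bright one.

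**Figure D2:**
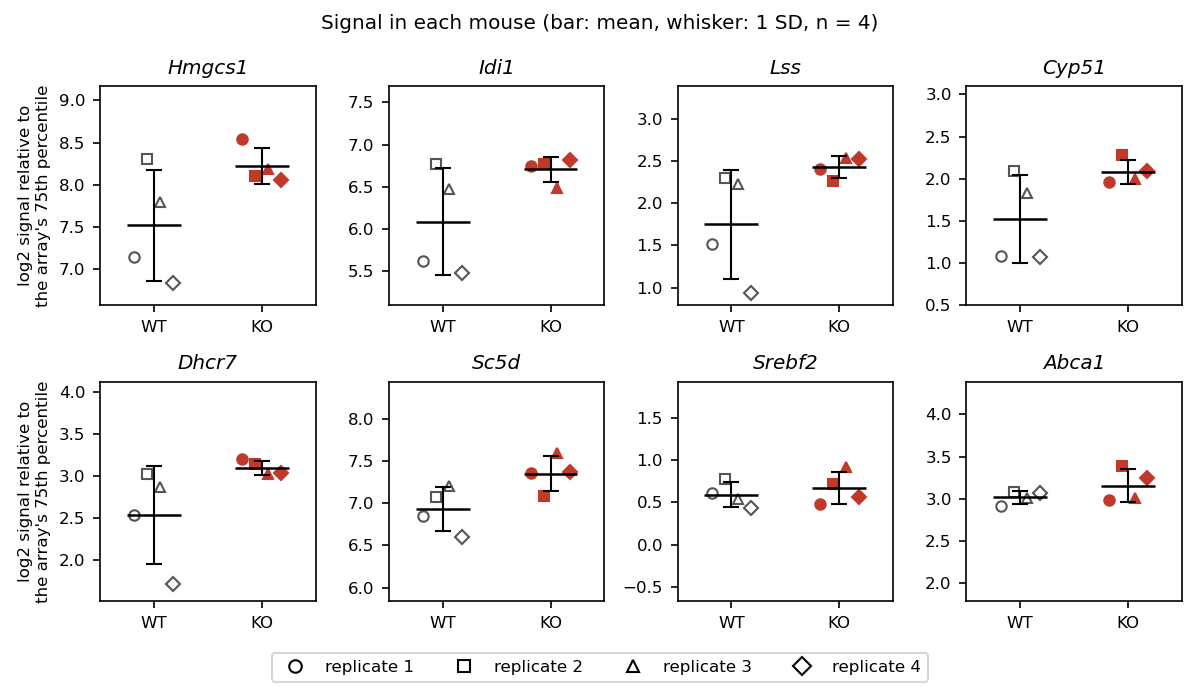
Log2 signal relative to the 75th percentile of the array (vertical axis, the same span in each panel) for 8 of the genes, with 1 point a mouse (WT, wild-type; KO, Rap1 -/-; the marker gives the replicate), the mean as a bar and 1 SD as whiskers. In Hmgcs1, Idi1, Lss, Cyp51 and Dhcr7 wild-type replicates 1 and 4 lie at the bottom, whereas Srebf2 and Abca1 show no such division.

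The differences in means thus came with a division among the wild-type mice. Wild-type replicate 4 was below all 4 Rap1 -/- arrays in 18 of the 19 synthesis genes (against 21.2% of all genes) and replicate 1 in 17 of 19 (against 30.4%). Replicate 2 was below them in 4 of 19 (against 24%) and replicate 3 in 6 of 19 (against 15.6%). As the median deviation of the synthesis genes from each gene's mean over 8 arrays, wild-type replicates 1 to 4 had -0.46, 0.23, 0.10 and -0.67, and the Rap1 -/- replicates had 0.17, 0.17, 0.24 and 0.24. By this measure wild-type replicate 2 was within the range of the Rap1 -/- livers and replicate 3 was just below it. Lbr was the exception for both low livers, with its highest wild-type value in replicate 4, at 1.24, and in Ebp replicate 1 was at 8.10, just above a Rap1 -/- liver at 8.07.

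**Figure D3:**
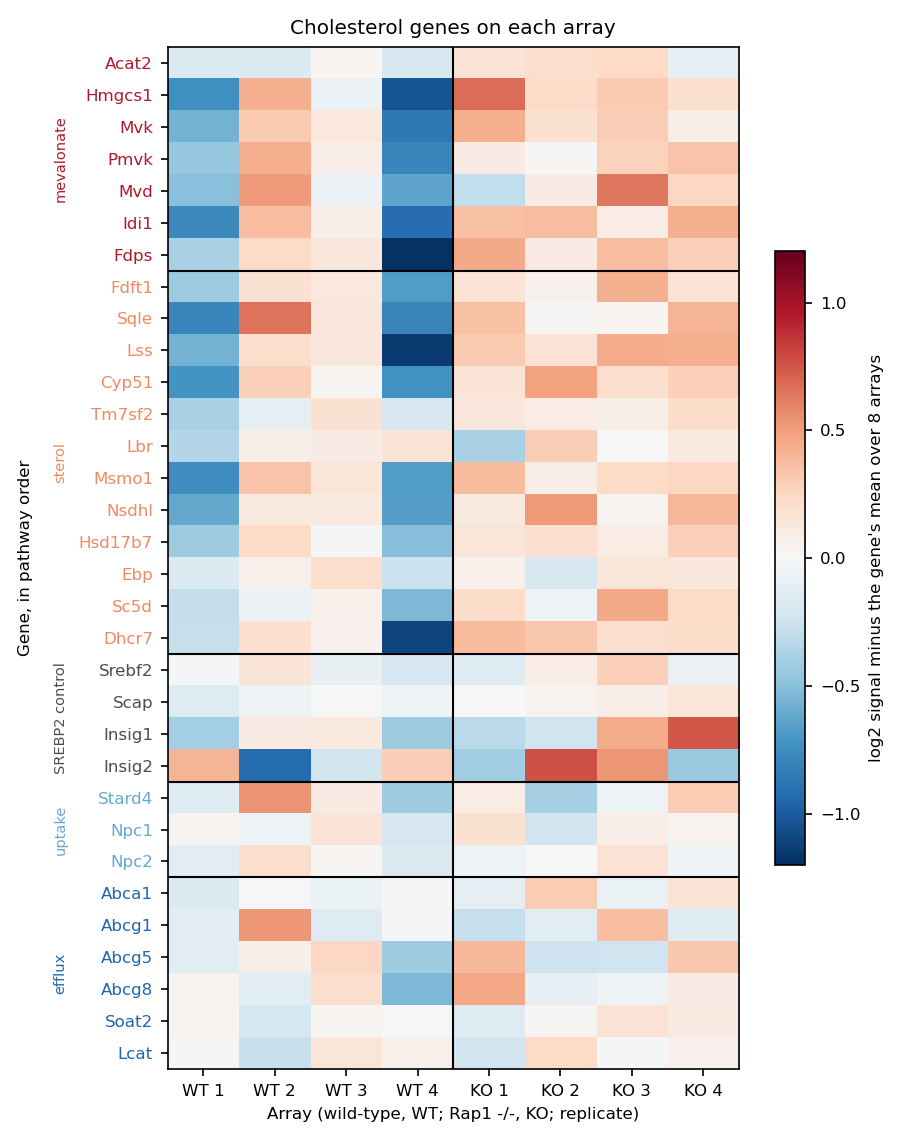
Log2 signal of each gene minus its mean over the 8 arrays (colour scale), for 32 genes in pathway order (rows) and 8 arrays (columns; WT, wild-type; KO, Rap1 -/-). The columns of wild-type replicates 1 and 4 are blue through most mevalonate and sterol rows, with medians of -0.46 and -0.67 over the synthesis genes, and not through the efflux rows.

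The same division appeared in most of these genes as a larger spread between wild-type than between Rap1 -/- livers, which is no separate result. In 17 of the 19 synthesis genes the SD over wild-type arrays was larger than that over Rap1 -/- arrays, against 46.6% of all genes, with median SDs of 0.52 and 0.16. Over all genes those medians were 0.19 and 0.21. From the lowest to the highest wild-type liver, Sqle and Hmgcs1 each spanned 2.74-fold, Fdps 2.65-fold and Lss 2.55-fold, while from the lowest to the highest Rap1 -/- liver they spanned 1.32-fold, 1.39-fold, 1.29-fold and 1.21-fold. Acat2 and Lbr were the synthesis genes with the larger SD in Rap1 -/- livers. Of the other 13 members, 5 had the larger SD in wild-type livers, with median SDs of 0.18 and 0.20. These are descriptions over genes that share the same 8 livers.

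**Figure D4:**
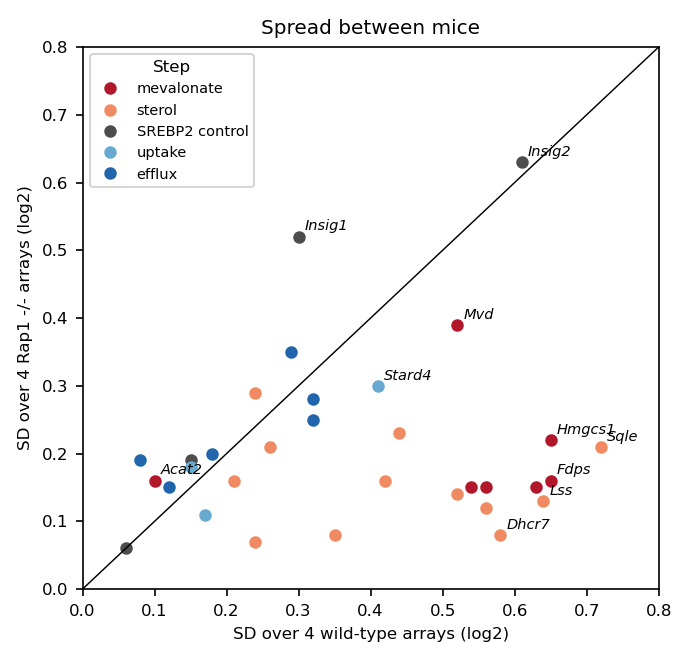
SD of the log2 signal over the 4 wild-type arrays (horizontal axis) against that over the 4 Rap1 -/- arrays (vertical axis), with 1 point a gene, coloured by step; the line marks equal SDs. Most mevalonate and sterol genes lie below the line, 17 of 19 of them, with Sqle at 0.72 and 0.21, whereas Insig1 lies above it at 0.30 and 0.52.

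The 4 genes that control SREBP2 had a median difference of 0.18, and wild-type replicate 4 was below all Rap1 -/- arrays in 3 of them and replicate 1 in 2. Srebf2 measured 0.61, 0.78, 0.54 and 0.43 in wild-type and 0.48, 0.72, 0.92 and 0.56 in Rap1 -/- livers, a difference of 0.08 ± 0.13 with an interval of -0.21 to 0.37, and a dimmer probe gave -0.14. The groups overlapped throughout. Scap differed by 0.13 ± 0.09, with an SD of 0.06 in each group. Insig1, itself a target of SREBP2, measured 2.71, 3.21, 3.23 and 2.68 against 2.79, 2.88, 3.56 and 3.86, a difference of 0.31 ± 0.26. Its low wild-type values were those of replicates 1 and 4, as for most enzymes, both below the lowest Rap1 -/- value, but 2 Rap1 -/- livers were nearly as low. Insig1 was at -0.12 on slide 1 and 0.75 on slide 2, and it was the only member whose interaction of slide and genotype had an unadjusted p under 0.05 (against 3.34% of all genes; limma adjusted p = 1). Insig2, which in liver is known to be repressed by insulin, measured 3.87, 2.54, 3.25 and 3.76 in wild-type and 3.05, 4.24, 4.00 and 3.02 in Rap1 -/- livers. Its order among the wild-type mice was opposite to that of the enzymes, with replicates 1 and 4 highest, and the difference in means was 0.22 ± 0.37. A dimmer probe of Insig2 gave 0.02.

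The genes of uptake and intracellular transport had means within 0.03 of each other in log2 signal. Stard4, a sterol carrier that is also a target of SREBP2, measured 4.20, 4.90, 4.46 and 3.93 in wild-type and 4.45, 3.96, 4.30 and 4.66 in Rap1 -/- livers. The difference was -0.03 ± 0.22, with an interval of -0.54 to 0.48, and a dimmer probe gave -0.01. Among wild-type livers Stard4 was lowest in replicates 4 and 1 and highest in replicate 2, the order seen in Hsd17b7 and Idi1, but Rap1 -/- replicate 2 was nearly as low as wild-type replicate 4. Npc1 and Npc2, which release cholesterol from lysosomes, each differed by 0.03, with intervals of -0.25 to 0.32 and -0.23 to 0.29. The sign of these 3 genes depended on the scaling, Stard4 being at 0.13 with the array median and Npc1 and Npc2 at -0.02 and -0.06 with normexp and quantile normalization.

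Efflux and esterification genes overlapped between the genotypes in every case, with a median of 0.10. Most genes did so, since over all genes 3.01% had every Rap1 -/- array above and 1.3% every one below the wild-type arrays. Abca1, the LXR target that loads cholesterol onto apolipoprotein A-I, measured 2.91, 3.08, 3.01 and 3.07 in wild-type and 2.98, 3.39, 3.01 and 3.25 in Rap1 -/- livers. Its difference was 0.14 ± 0.12, and the wild-type SD of 0.08 stood against 0.65 for Hmgcs1 in the same 4 livers. Abcg1, another LXR target, differed by -0.10 ± 0.19 (0.06 with the array median). Abcg5 and Abcg8, partners in the transporter that secretes cholesterol into bile, differed by 0.12 ± 0.20 and 0.21 ± 0.19. Abcg5 measured 5.59, 5.80, 5.98 and 5.30 in wild-type and 6.13, 5.48, 5.49 and 6.05 in Rap1 -/- livers, and Abcg8 measured 0.35, 0.18, 0.52 and -0.23 against 0.77, 0.21, 0.26 and 0.41. Both were lowest in wild-type replicate 4 and highest in Rap1 -/- replicate 1. Soat2, which esterifies cholesterol in hepatocytes, differed by 0.07 ± 0.11, and Lcat, the plasma esterifying enzyme made by liver, by 0.02 ± 0.13 (-0.04 with normexp and quantile normalization).

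Neighbouring pathways were read from lists of their own. In the isoprenoid branch, which leaves the pathway at farnesyl diphosphate, 0 of 10 genes tested passed, 5 were above 0 and the median was 0.03. Coq2, of ubiquinone synthesis, measured 3.61, 3.70, 3.61 and 3.54 in wild-type and 3.92, 3.94, 3.88 and 3.87 in Rap1 -/- livers without overlap, against 3.01% of all genes in this direction, a difference of 0.29 ± 0.08 (adjusted p = 0.769). In bile acid synthesis, where cholesterol is consumed, 0 of 13 passed and 11 were above 0, with a median of 0.25. Acox2, the peroxisomal oxidase of the side chain, had non-overlapping groups (against the same 3.01%) and a difference of 0.49 ± 0.13, and Akr1d1, the steroid reductase, differed by 0.45 ± 0.15 (adjusted p = 0.769 for both). That list's median was 0.45 on slide 1 and 0.03 on slide 2, and by array it stood at -0.11, -0.21, -0.11 and -0.05 in wild-type replicates 1 to 4. It thus did not share the division of the wild-type mice. Of 15 genes of SREBP processing and LXR control 0 passed (median -0.01), Paqr3, a Golgi anchor of SCAP, being at -1.09 ± 0.30 but well above background on 3 wild-type and 1 Rap1 -/- arrays, and of 15 genes of lipoprotein uptake and the lysosome 0 passed (median 0.05).

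The lipogenic targets of SREBP1c, which make fatty acids, shared the low values of wild-type replicates 1 and 4 but not the level of the Rap1 -/- group. Of these 14 genes 0 passed, 11 were above 0 and the median difference was 0.07. By slide, the median of these genes was -0.20 on slide 1, with 4 above 0, and 0.38 on slide 2, with 13 above 0. Their median deviations were -0.32, 0.40, 0.27 and -0.55 in wild-type and 0.10, -0.40, 0.03 and 0.41 in Rap1 -/- replicates 1 to 4. Acly, which supplies cytosolic acetyl-CoA, measured 6.46, 7.54, 7.01 and 5.96 in wild-type and 7.12, 6.47, 7.03 and 7.36 in Rap1 -/- livers. Rap1 -/- replicate 2 was low in the lipogenic genes and not in the synthesis genes. A list of 12 genes of feeding and fasting, which follow the last meal, had median deviations of -0.27, 0.27, -0.47 and 0.60 in wild-type and -0.17, 0.31, -0.58 and 0.43 in Rap1 -/- replicates, and 14 circadian genes had -0.17, 0.48, 0.44 and -0.27 against 0.50, -0.67, -0.21 and 0.43. Their median differences between genotypes were -0.12 and -0.09, and both lists varied among mice of either genotype. Among wild-type mice the circadian median was low in replicates 1 and 4, as for the synthesis genes. It was also low in Rap1 -/- replicates 2 and 3, where the synthesis genes were not. Dbp measured 6.25, 6.84, 7.28 and 5.94 in wild-type and 7.10, 4.49, 6.14 and 6.90 in Rap1 -/- livers. Arntl ran in the reverse order, at -1.48, -3.02, -3.77 and -1.37 against -3.60, 0.07, -0.82 and -3.11. The part of both lists in the levels of the synthesis genes was not tested.

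**Figure D5:**
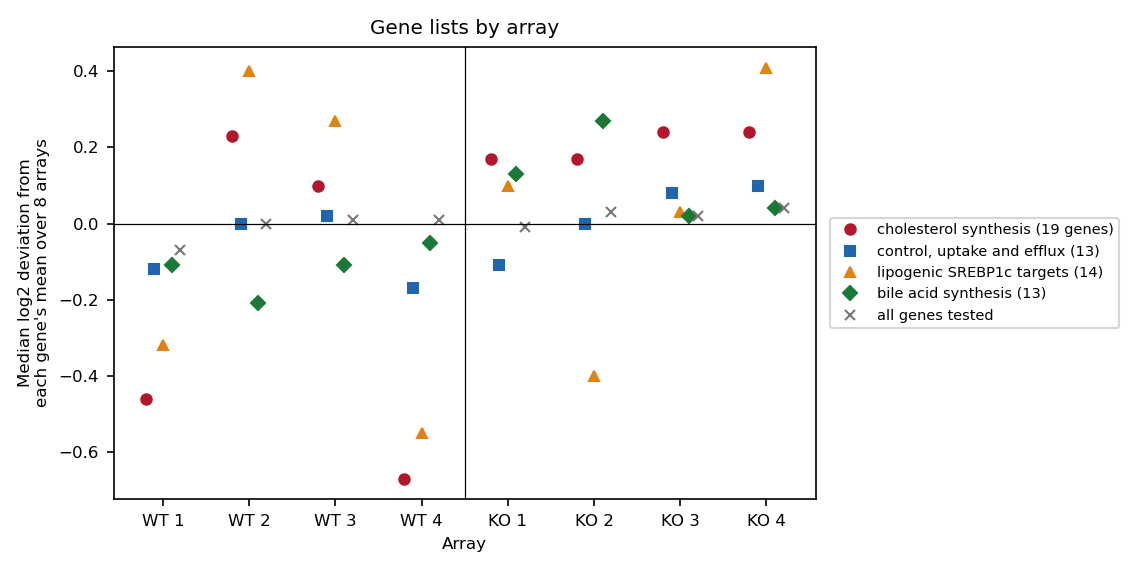
Median log2 deviation of a gene list from each gene's mean over the 8 arrays (vertical axis), for each array (horizontal axis; WT, wild-type; KO, Rap1 -/-), with 1 marker a list. The synthesis genes are at -0.46 and -0.67 in wild-type replicates 1 and 4 and between 0.10 and 0.24 in the other 6 arrays, while the lipogenic genes are also low in Rap1 -/- replicate 2, at -0.40.

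Markers of other cells in the liver were read in the same way. Of 5 cholangiocyte markers, all were detected and 4 were above 0, with a median of 0.46, Krt19 at 0.59 ± 0.19 and Spp1 at 0.69 ± 0.24, and their summed level was 1.67 to 2.21 in wild-type and 2.00 to 3.00 in Rap1 -/- arrays (log2). Of 6 hepatocyte markers 4 were above 0, with a median of 0.08, and Alb was lower by a log2 difference of -0.21 ± 0.09 without overlap, against 1.3% of all genes with all Rap1 -/- arrays below all wild-type arrays. Median differences were -0.11 for 5 Kupffer cell markers, 0.02 for 6 endothelial, 0.07 for 6 stellate cell, -0.16 for 5 T and B cell and -0.70 for 3 neutrophil markers tested, and none of the markers passed the test. All of these medians but that of the cholangiocyte markers (0.49 and 0.51) changed sign between slides 1 and 2. Of the 5 cholangiocyte markers, 5 were above 0 on slide 1 and 3 on slide 2. By array, their median deviation in Rap1 -/- replicate 4 was -0.49, among the wild-type values of -0.61 to 0.02. The other medians were -1.58 and 0.18 for the neutrophil and -0.30 and 0.06 for the T and B cell markers. Kupffer cell markers had -0.31 and 0.05 and hepatocyte markers 0.23 and -0.06. Endothelial markers had -0.11 and 0.15 and stellate cell markers -0.03 and 0.20. Of 4 adipocyte markers 0 passed the filter on dim signals, and Lep was above background on none of the 8 arrays. Fewer cells of a type and less RNA in each such cell cannot be told apart in whole liver. The part of these markers in the result was not tested.

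Within the slides the synthesis genes kept their direction in most cases. Their median was 0.36 on slide 1, where 17 of 19 were above 0, and 0.56 on slide 2, where 18 of 19 were. Mvd was at -0.10 and Ebp at -0.02 on slide 1, and Lbr at -0.07 on slide 2. Each slide held 1 of the low wild-type livers, replicate 1 on slide 1 and replicate 4 on slide 2. Without wild-type replicate 1 the synthesis median was 0.32 and without wild-type replicate 4 it was 0.29, and in either case 0 members had an unadjusted p under 0.05. Single genes moved by over 1.5 times without wild-type replicate 4: Lss went to 0.42, Fdps to 0.31, Mvk to 0.29, Dhcr7 to 0.29, Fdft1 to 0.24, Pmvk to 0.16 and Mvd to 0.19. Without wild-type replicate 1, Msmo1 went to 0.29 and Tm7sf2 to 0.16, and leaving out either of these arrays alone brought Sqle to 0.20. Without wild-type replicate 2 the median was 0.65, with 15 members under 0.05 unadjusted and Sqle at 0.68, Pmvk at 0.57 and Mvd at 0.58, and without wild-type replicate 3 it was 0.51, with 12. Leaving out a Rap1 -/- array gave medians of 0.41 to 0.46 and 1 to 2 members under 0.05 unadjusted, with Mvd at 0.19 without replicate 3 and Insig1 at 0.12 without replicate 4 and 0.47 without replicate 1. No member passed the adjusted threshold in any of these fits.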

How the data were processed

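Livers of 4 Rap1 -/- and 4 wild-type mice were profiled on single-colour Agilent arrays. Per the file headers, the deposited values of each spot are its fluorescence intensity (linear), extracted and background-subtracted with Agilent Feature Extraction 10.7.3.1 on a grid annotated on mm9. The authors also deposited a table of log2 values whose median on each array was 6.39 to 6.40. These log2 values were within 0.05 of normexp correction (offset 50) with quantile normalization at 99.536% of values. Limma is named in the submitters' processing notes.

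From the scanner files, outlier spots and control spots were left out, repeated spots were averaged, log2 of the processed signal was taken and the 75th percentile of each array was subtracted. Of 55681 probes, 26056 (46.8%) were named through RefSeq accessions of GRCm38.p6, and 39 probes with no value on 1 or more arrays were left out. Probes well above background on at least 4 of 8 arrays were kept, and the brightest stood for its gene. Genotypes were compared without covariates by lmFit and eBayes of limma 3.58.1 under R 4.3.3, with Benjamini-Hochberg adjustment over 14062 genes and a threshold of 0.05. For single values an exact permutation test, two-sided, ran over the 70 partitions of the arrays. Errors of differences are the standard errors of limma, and 95% intervals come from the same fit. The number of arrays limits the precision. The procedure was tested on simulated data of 4 against 4 arrays. In each run 200 changed genes were drawn at random from all genes, with independent noise at each gene's own variance. The procedure called 72.4% of simulated 2-fold, 28.8% of 1.5-fold and 0.8% of 1.25-fold changes. The synthesis genes had a median wild-type SD of 0.52, against 0.19 over all genes, so these rates need not hold for them. A gene that did not pass is therefore not shown to be unchanged.

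The genes named are the 32 members, Terf2ip and, of each further list, up to 4 with the smallest p. The members and lists were chosen with earlier results of these data known. Alternatives were normexp on the median spot signal (the mean signal was not used here) with quantile normalization, quantile normalization alone, scaling to the array median, the authors' table, other filters on dim probes, the mean of probes, a trended and robust variance, the slide or the replicate number as a block, each slide alone and leaving out each array. The replicates are numbered in their labels and were taken as separate mice.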

Additional observations from a re-analysis of the deposited data

Results flagged for a closer look

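Of the 64 groups of 4 values (32 genes in 2 genotypes), 1 held a value far from the others. Acat2 in wild-type replicate 3 was at 5.61 (log2, relative to the 75th percentile of the array), while the other 3 wild-type livers were at 5.40 to 5.43, and the gap took up 0.886 of the range of the group. Chance alone sets apart about 1 in 20 such groups.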

How the results depend on the processing

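No member passed the adjusted threshold under any alternative, and the median of the synthesis genes stayed above 0, from 0.29 to 0.65. All genes past the threshold were 2 (Chst4 and Zfhx3, no members, named after their values were seen), 3 with the mean of probes and with a trended and robust variance, 0 with normexp and quantile normalization, with the authors' table and within slide 1, and 1 with quantile normalization alone, without the filter, with probes above background on all 8 arrays, with slide as a block, within slide 2 and without any 1 array (1 to 1). With the replicate block 0 genes passed, 0 members passed and 5 members had an unadjusted p under 0.05. Whether the replicate numbers pair the mice is not given. Same-numbered livers correlated at -0.18 to 0.0969 in their deviations and none correlated best with its own number, which cannot settle it. Scaling to the array median moved the median of all genes from 0.02 to 0.18 and that of the synthesis genes from 0.42 to 0.58, with 32 of 32 members above 0, and normexp, quantile normalization and the authors' table left 26 of 32. The first Terf2ip probe gave -6.10 within slide 1 (adjusted p = 0.0833), which is no measured size, since the probe was not above background in Rap1 -/- livers. Of the members whose sign turned, Mvd, Insig1 and Insig2 had differences of 0.35, 0.31 and 0.22 in the report and the others lay between -0.10 and 0.12. Lbr, Npc1, Npc2 and Lcat were at -0.02, -0.02, -0.06 and -0.04 with normexp and with the authors' table, and at -0.01, -0.01, -0.02 and -0.02 with quantile normalization. Stard4 and Abcg1 were at 0.13 and 0.06 with the array median and at 0.28 and 0.19 within slide 2, where Lbr was at -0.07 and Lcat at -0.08. Srebf2 was at -0.03 with the mean of its probes. Within slide 1, Mvd was at -0.10, Ebp at -0.02, Srebf2 at -0.09, Insig1 at -0.12, Npc1 at -0.01 and Npc2 at -0.08. Leaving out 1 array at a time moved Lbr from -0.10 to 0.14, Srebf2 from 0.00 to 0.14, Insig2 from -0.05 to 0.41, Stard4 from -0.18 to 0.14, Npc1 from -0.03 to 0.12, Npc2 from -0.03 to 0.10, Abcg1 from -0.24 to 0.05, Abcg5 from 0.00 to 0.23, Ebp from 0.00 to 0.16 and Lcat from -0.06 to 0.11. The cause of these turns was not tested. All 32 members were above background on at least 4 arrays.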
